A study of Mus musculus with 20 samples.

Results

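GENCODE release M21 places 787 genes of the deposited gene table in the class processed_transcript, its label for transcripts without an open reading frame that fit no narrower class of non-coding RNA. The 210 genes described here were chosen by their measured counts: they are the genes of this class with a mean of 10 or more counts over all 20 libraries, after 7 Snhg genes and the one of Gas5, Neat1, Malat1 and Terc that carried this label were set aside. They are 210 of 779 eligible genes and of 55471 genes in the table, and 277 of the eligible genes had no count in any library. The gene names are mostly systematic, with 103 of the RIKEN series, 67 of the Gm series and 8 that carry a clone accession. RefSeq lists 145 of the 210 as long non-coding RNAs and has no entry for 53, but it lists 10 as protein-coding, among them Cct6a, Ifi30, Tmem134 and Zswim6, and 2 as transcribed pseudogenes. For these 10 the label non-coding does not hold in RefSeq. Just above the threshold stood Gm11769 with a mean of 10.05 counts and Gm44957 with 10.1, and just below it Gm12992 with 9.75 and Gm14379 with 9.65.

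Mammalian promoters and enhancers fire in both directions, and much of the RNA made upstream of genes or from short non-coding units is destroyed in the nucleus soon after it is made. ZCCHC8 forms the core of NEXT, the nuclear exosome targeting complex. NEXT joins it to the RNA-binding protein RBM7 and the helicase MTR4 (gene Mtrex) and hands short, often unpolyadenylated RNAs to the 3′ to 5′ exonuclease machine called the exosome. PROMPTs, or promoter upstream transcripts, are the best known NEXT substrates. Long non-coding RNAs that start back to back with a coding gene grow out of the same kind of promoter, and others serve as host transcripts, which carry microRNAs or small nucleolar RNAs (snoRNAs, guides of ribosomal RNA modification) inside them.

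The cells were SIMS, an immortalized duct cell line of the mouse submandibular salivary gland, and the study set out to ask which transcripts need ZCCHC8 for their removal. Total RNA was sequenced from unedited wild-type SIMS cells, from SIMS cells with a CRISPR/Cas9 knockout (KO) of Btbd7, used as the negative control, and from 3 clones with a CRISPR/Cas9 KO of Zcchc8. Each of the 5 groups had 4 libraries. Each Zcchc8 KO clone is 1 edited line, and nothing in the labels says that the 4 libraries of a line came from separate cultures. The p-values here therefore measure only the spread between these libraries. The libraries held 6833258 to 17771804 counts in genes. Zcchc8 itself was at 21.9 to 24.9 CPM (counts per 1000000 gene counts, scaled by the TMM factors of edgeR) in clone 2, 55.1 to 65.6 in clone 1, 50.4 to 60.6 in clone 3 and 61.6 to 68.1 in wild type, with clone 1 overlapping wild type and clone 3 just below it. Btbd7 was at 95.8 to 103 CPM in its KO and 192 to 209 in wild type. All 7 ductal epithelial markers examined were detected, with summed levels of 3417 to 5048 CPM in wild type and 3105 to 3975 CPM in the 12 Zcchc8 KO libraries. Of the markers of other cell types, 4 of 5 myoepithelial (all but Krt14), 3 of 5 acinar (all but Aqp5 and Bhlha15), 5 of 6 fibroblast (all but Col1a1), 3 of 4 leukocyte (all but Cd68) and 4 of 4 endothelial genes were below 1 CPM in wild type. The summed levels in wild type and in the Zcchc8 KO libraries were 252 to 395 and 162 to 326 CPM for the myoepithelial list and 167 to 189.7 and 115 to 164 CPM for the acinar list. Summed fibroblast markers were at 9.3 to 14.9 CPM in wild type, 9.88 to 13.8 in clone 1, 24.4 to 28.1 in clone 2 and 21.1 to 24.98 in clone 3, and at 16.6 to 26.1 in Btbd7 KO. Summed leukocyte markers were at 4.52 to 6.19 CPM in wild type, 8.07 to 13.4 in clone 1, 9.26 to 11.01 in clone 2 and 4.09 to 6.63 in clone 3, with Ptprc, Cd3e and Adgre1 at 0 in every wild-type library. The part of these markers in the results was not tested. Wild-type replicate 1 stood apart, with counts in 14245 genes against 17442 to 20889 in the other 19 libraries, and in 156 members against 201 to 210. Results are therefore given with it and, where they move, without it.

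Members took a larger share of the library in every Zcchc8 KO clone. Per 1000 gene counts, members held 1.94 ± 0.0775 in wild type and 1.97 ± 0.0333 in Btbd7 KO (SD, n = 4). Clones 1, 2 and 3 held 2.74 ± 0.00899, 2.65 ± 0.0397 and 2.71 ± 0.0561. The 12 Zcchc8 KO libraries (2.59 to 2.78) did not overlap the 8 others (1.83 to 2.02). The members were chosen by these same counts, most of them from Zcchc8 KO libraries. The share was not taken without members whose wild-type mean was below 10 counts, so it is a description and no support. For the mean of the 3 clones against wild type, 102 of the 210 members were higher and 5 lower (quasi-likelihood test of edgeR, p adjusted by Benjamini-Hochberg over 15297 genes and called below 0.05). Of all genes, 16.2% of those tested were called higher and 19.9% lower. The median log2 fold change was 0.74 over the members and -0.01 over all genes tested. Of the members called higher, 87 had at least doubled by the fitted values. These 87 include members with a wild-type mean below 10 counts, and the share over all genes was not counted.

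Because 12 of the 20 libraries that set the threshold of 10 counts were Zcchc8 KO libraries, a gene that was scarce elsewhere could enter only by being higher there. The 36 members with a wild-type mean below 10 counts show this, with 32 higher and a median log2 fold change of 2.67, and their counts support nothing. Fendrr, which is among them, was also called higher in Btbd7 KO. Among the 174 members with a wild-type mean of 10 or more, 70 were higher and 5 lower, with a median of 0.52. Of all genes with such a mean, 1757 of 13655 tested were higher (12.9%) and 3038 lower, with a median of -0.04. The threshold of 10 counts was also applied to the Btbd7 KO mean, which plays no part in the contrast. Then 66 of 162 genes tested were higher, 5 were lower and the median was 0.53. Of all genes chosen in the same way, 1722 of 13314 tested were higher (12.9%) and 3000 lower, with a median of -0.04.

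More members were higher than lower in each clone. Clone 1 had 103 members higher and 11 lower (all genes 16.7% and 19.1%), clone 2 had 95 and 3 (16.1% and 16.2%), and clone 3 had 91 and 3 (14.0% and 15.3%); the 3 comparisons share the wild-type libraries. Against Btbd7 KO in place of wild type, 107 members were higher and 5 lower (18.8% and 22.2% of all genes). Btbd7 KO against wild type gave 10 members higher and 14 lower (7.73% and 8.0% of all genes), with a median of -0.01. In 52 members all 12 Zcchc8 KO libraries lay above all 8 other libraries, and in 0 members they lay below them (4.62% and 2.39% of all genes tested). The counts by clone, against Btbd7 KO and by library were not limited to members with a wild-type mean of 10 or more. They include members that could enter only through the Zcchc8 KO libraries, and for those members they support nothing. Leaving out wild-type replicate 1 gave 112 higher and 2 lower, beside 2728 higher (17.5%) and 2901 lower of 15547 genes tested. Of the members, 100 were called higher both ways.

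**Figure D1:**
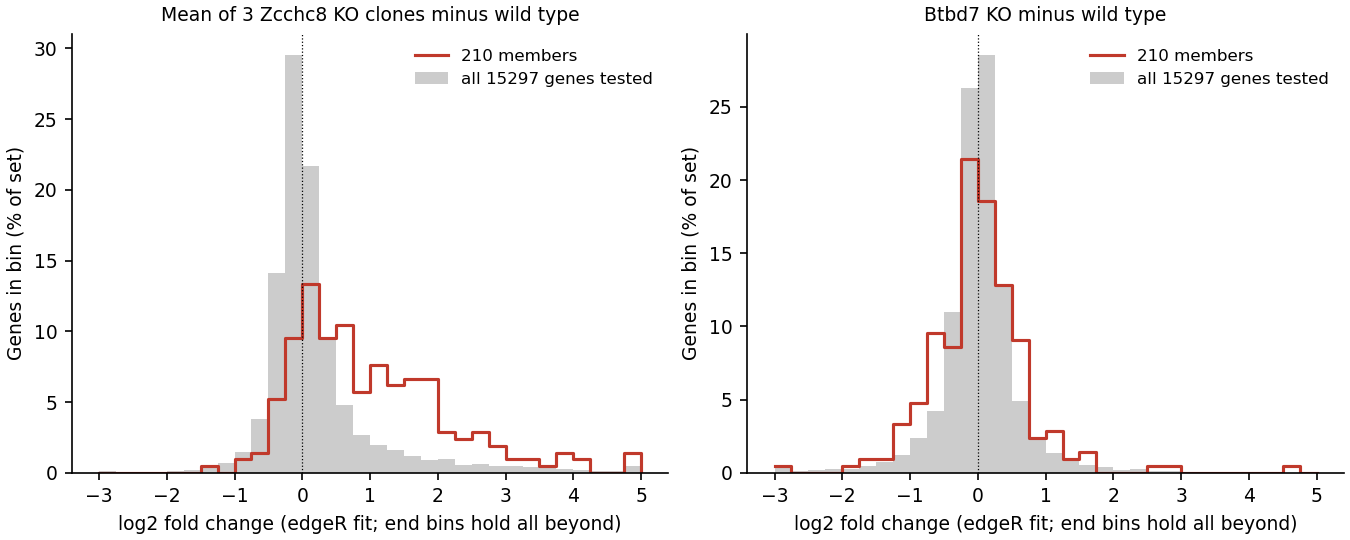
Share of genes (vertical axis, percent of each set) by log2 fold change (horizontal axis) for all 15297 genes tested (grey bars) and the 210 members (red line), for the mean of the 3 Zcchc8 KO clones (left) and for Btbd7 KO (right), each against wild type. The members' line runs to the right of the grey bars for Zcchc8 KO, with medians of 0.74 and -0.01. For Btbd7 KO the line is flatter and wider than the bars, with 61.4% of members and 78.6% of all genes at a log2 fold change within 0.5 of 0.

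Among members with at least 50 counts on average that were called in every clone, 8 stood highest. Calls in every clone were made for 73 members higher, beside 7.64% of all genes higher and 5.82% lower. The 73 include members with a wild-type mean below 10 counts, for which such calls support nothing. Gm14488 (2 exons, chr2:30713147-30720057 of GRCm38, minus strand) had 0.195, 1.27, 1.27 and 3.17 CPM in the 4 wild-type libraries and 1.57, 2.19, 1.86 and 2.37 in Btbd7 KO. It had 12.8, 11.8, 9.41 and 9.93 in clone 1, 12.2, 10.7, 9.75 and 13.3 in clone 2 and 8.54, 7.78, 11.9 and 13.6 in clone 3. Every Zcchc8 KO library exceeded every other library, and the log2 fold change was 2.86 ± 0.32 (SE; adjusted p in edgeR = 1.47e-07). Gm6225 (chr18:3336680-3366863), whose exons overlap those of Crem on the other strand, went from 1.94 ± 0.819 CPM in wild type (SD, n = 4) to 10.9 ± 0.713, 8.9 ± 1.24 and 7.59 ± 1.96 in the 3 clones, a log2 fold change of 2.22 ± 0.25 (adjusted p in edgeR = 1.17e-07), and Btbd7 KO was at 1.9 ± 0.602. Reads of a gene and of its antisense partner cannot be told apart where the counting may not have used the strand, which is not given in the sources used here. That limit also holds for 4921531C22Rik (chr2:179975993-179979013), whose exons overlap those of the transcription factor subunit gene Taf4. Its wild-type libraries held 9.62, 7.58, 6.13 and 8.03 CPM and its Btbd7 KO libraries 5.3, 4.38, 4.59 and 4.81. The clones held 29.5 ± 4.27, 24.8 ± 2.2 and 25.8 ± 1.78 (SD, n = 4 each). It thus moved in opposite directions in the 2 kinds of KO, by 1.76 ± 0.12 in Zcchc8 KO (adjusted p in edgeR = 1.98e-11) and by -0.71 ± 0.15 in Btbd7 KO (adjusted p in edgeR = 0.00123).

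The steepest rises were in genes with almost no wild-type reads. All 13 members with a log2 fold change above 3 had wild-type means below 10 counts. Gm10433 had 0 counts in all 4 wild-type libraries and 0.121, 0.398, 0.124 and 0.253 CPM in Btbd7 KO. It had 3.18 ± 0.674, 1.72 ± 0.931 and 1.3 ± 0.541 CPM in the 3 clones (SD, n = 4 each). Against a floor of 3 counts per wild-type library it was at least 10.8-fold higher in Zcchc8 KO. In 1700003G18Rik, 4 counts in wild-type replicate 4 were all that wild type gave, and the clones held 3.6 ± 1.81, 3.27 ± 0.818 and 4.44 ± 1.3 CPM. Both were also called higher in Btbd7 KO, with edgeR adjusted p of 0.00467 and 0.0192. These genes were picked after their values were seen. With Gm10433 at its bound the median over the members was 0.74 as well. It could not have moved, since the bound also lies above the median, so this tests nothing. Of the genes just above the threshold, Gm44957 had 0, 0.289, 0.224 and 0 CPM in wild type and 1.76 ± 1.3, 1.51 ± 0.642 and 1.29 ± 0.186 in the clones. Gm11769 had 0, 0.405, 0.673 and 0.293 CPM in wild type and 1.44 ± 0.201, 1.07 ± 0.641 and 1.02 ± 0.345 in the clones.

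**Figure D2:**
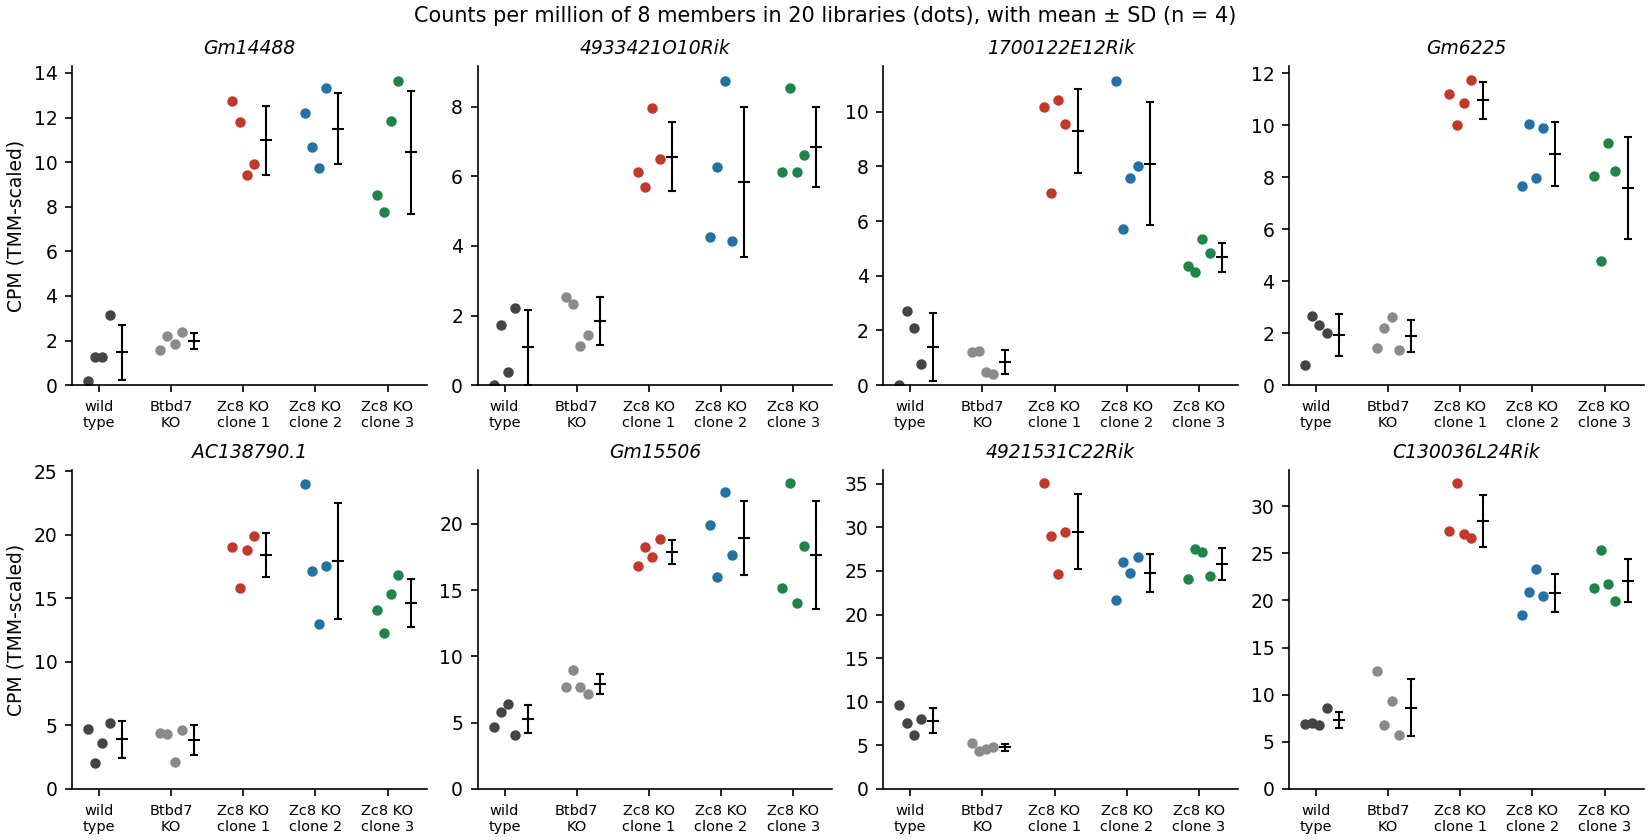
CPM, scaled by TMM factors (vertical axes, linear and starting at 0) in each of the 20 libraries (dots) for the 8 members with the largest log2 fold change among those with at least 50 counts that were called in every clone; black marks give mean ± SD (n = 4 per group). In all 8 panels the 3 Zcchc8 KO clones lie above wild type and Btbd7 KO.

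Of the 210 members, 60 start within 1000 bp of the start of a protein-coding gene on the other strand, a head-to-head layout. How often other genes have this layout was not counted. Of these 60, 38 were higher and 1 lower, with a median log2 fold change of 1.51. Of the other 150 members 64 were higher and 4 lower, with a median of 0.63. The head-to-head members were also scarcer in wild type, with a median of 19.75 counts against 39.75. Among members with a wild-type mean of 10 or more counts, 25 of 47 head-to-head members were higher, with a median of 1.03, against 45 of 127 others, with a median of 0.37.

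Of the 8 highest members in the plot of values by library, 5 are head to head with a coding gene. They lie opposite Ube2j1 (4933421O10Rik), which encodes a ubiquitin-conjugating enzyme of the endoplasmic reticulum, Calr (1700122E12Rik), which encodes the chaperone calreticulin, Ncl (C130036L24Rik), which encodes the nucleolar protein nucleolin, Thap12 (Gm15506) and the mitochondrial carrier gene Slc25a28 (AC138790.1). The starts are 93, 254, 174, 175 and 297 bp apart. The RefSeq promoters of 4 of them, from 250 bases before to 50 bases after the RefSeq start on GRCm38.p6, are shown because both starts lie in one short stretch of DNA. Capitals mark the DNA from the start of the coding partner to the start of the member in GENCODE, 5′ to 3′ on the member's strand.
4933421O10Rik (chr4:33031274-33031573, minus strand): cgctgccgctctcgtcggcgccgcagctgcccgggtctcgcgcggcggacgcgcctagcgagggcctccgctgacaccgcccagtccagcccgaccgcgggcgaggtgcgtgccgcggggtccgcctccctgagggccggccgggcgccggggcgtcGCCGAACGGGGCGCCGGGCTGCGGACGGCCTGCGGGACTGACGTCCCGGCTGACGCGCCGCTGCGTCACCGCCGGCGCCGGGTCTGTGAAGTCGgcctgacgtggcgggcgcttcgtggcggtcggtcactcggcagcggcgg
1700122E12Rik (chr8:84846897-84847196, plus strand): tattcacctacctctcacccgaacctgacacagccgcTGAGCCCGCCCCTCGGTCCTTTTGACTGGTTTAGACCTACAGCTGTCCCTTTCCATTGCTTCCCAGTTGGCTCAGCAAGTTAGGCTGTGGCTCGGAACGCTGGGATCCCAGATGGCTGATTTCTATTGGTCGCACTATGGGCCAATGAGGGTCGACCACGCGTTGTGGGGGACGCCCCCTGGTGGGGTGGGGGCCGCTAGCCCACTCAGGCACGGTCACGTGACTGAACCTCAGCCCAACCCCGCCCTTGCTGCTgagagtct
C130036L24Rik (chr1:86359334-86359633, plus strand): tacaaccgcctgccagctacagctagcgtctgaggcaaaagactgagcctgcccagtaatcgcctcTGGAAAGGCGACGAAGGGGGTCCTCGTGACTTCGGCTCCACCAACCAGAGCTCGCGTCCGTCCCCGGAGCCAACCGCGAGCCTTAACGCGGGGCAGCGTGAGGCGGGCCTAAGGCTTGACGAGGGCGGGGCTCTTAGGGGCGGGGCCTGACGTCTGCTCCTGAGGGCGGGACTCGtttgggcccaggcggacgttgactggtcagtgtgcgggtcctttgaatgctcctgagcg
Gm15506 (chr7:98702879-98703178, minus strand): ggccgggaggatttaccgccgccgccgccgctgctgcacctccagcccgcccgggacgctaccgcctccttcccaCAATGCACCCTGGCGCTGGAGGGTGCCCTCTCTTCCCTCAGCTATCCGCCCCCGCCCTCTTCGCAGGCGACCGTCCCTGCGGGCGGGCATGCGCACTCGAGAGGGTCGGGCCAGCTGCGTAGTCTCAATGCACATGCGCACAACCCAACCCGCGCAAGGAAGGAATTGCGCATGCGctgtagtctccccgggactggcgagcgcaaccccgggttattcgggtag
The shared stretch held 18, 13, 20 and 17 CpG dinucleotides in this order and was 78.7%, 61.6%, 69.7% and 67.0% G or C. RefSeq promoters were matched for 130 of the 210 members, of which 80 lay within 50 bp of the GENCODE start. In these 300-base windows, read on both strands, GGGCGG (the GC box) was present in 56.9% of the 130 members and in 72.2% of the 36 head-to-head ones, against 35.7% of all 32851 promoters of the table. TATAAA was present in 10.0% of members and 13.6% of all promoters, and CCAAT in 32.3% and 37.4%. Median CpG counts were 16.5 in the members, 26.5 in the head-to-head members and 7 in all promoters. The sets are not alike, since the members were chosen by their counts and the promoters of the table were not. Some RefSeq starts of head-to-head members also lie far from the GENCODE start, as in 4933431K23Rik (48298 bp). GGGCGG was in 55.7% of the 61 promoters of members called higher and in 58.0% of the 69 others.

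These 5 members were taken from those already called higher in every clone, so their rise follows from that choice. The separation of their libraries adds no support. Of the 5 coding partners none was called higher. Ncl, Thap12, Calr and Ube2j1 were called lower and Slc25a28 was not called. C130036L24Rik, opposite Ncl, held 6.89, 7.0, 6.8 and 8.62 CPM in wild type and 12.5, 6.84, 9.31 and 5.74 in Btbd7 KO. The values were 27.3, 32.5, 27.1 and 26.6 in clone 1, 18.5, 20.9, 23.3 and 20.4 in clone 2 and 21.3, 25.4, 21.8 and 19.97 in clone 3. The clones' libraries lay above all 8 others, for a log2 fold change of 1.68 ± 0.15 (SE; adjusted p in edgeR = 3.11e-09). Ncl changed by -0.30 (adjusted p in edgeR = 2.55e-05). Gm15506, opposite Thap12, held 4.68, 5.79, 6.43 and 4.11 CPM in wild type and 7.72, 8.96, 7.69 and 7.18 in Btbd7 KO. The clones were at 17.9 ± 0.894, 19 ± 2.78 and 17.7 ± 4.06 (SD, n = 4 each). It rose by 1.79 ± 0.15 in Zcchc8 KO and by 0.59 ± 0.17 in Btbd7 KO (adjusted p in edgeR = 8.62e-10 and 0.0184). Thap12 changed by -0.36 in Zcchc8 KO (adjusted p in edgeR = 6.31e-06). For 1700122E12Rik, opposite Calr, the wild-type libraries held 0, 2.72, 2.09 and 0.762 CPM and the Btbd7 KO libraries 1.21, 1.26, 0.496 and 0.422. The clones held 10.2, 7.04, 10.4 and 9.55 (clone 1), 11.1, 5.7, 7.59 and 8.01 (clone 2) and 4.34, 4.14, 5.35 and 4.84 (clone 3). Here too no Zcchc8 KO library fell into the range of the others, and the log2 fold change was 2.33 ± 0.42 (adjusted p in edgeR = 0.000103), or 1.93 without wild-type replicate 1. Calr changed by -0.27 (adjusted p in edgeR = 2.45e-05). 4933421O10Rik, opposite Ube2j1, rose from 1.08 ± 1.07 CPM to 6.57 ± 0.987, 5.85 ± 2.15 and 6.85 ± 1.15, by 2.51 ± 0.43 (adjusted p in edgeR = 6.2e-05). Ube2j1 changed by -0.31 (adjusted p in edgeR = 6.33e-05). AC138790.1, opposite Slc25a28, rose from 3.9 ± 1.42 CPM to 18.4 ± 1.76, 17.9 ± 4.55 and 14.6 ± 1.91, by 2.11 ± 0.21 (adjusted p in edgeR = 1.92e-08). Slc25a28 was at 0.07 and was not called.

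Over all 60 pairs, 3 coding partners were higher and 25 lower in Zcchc8 KO, beside 16.2% and 19.9% of all genes, with a median log2 fold change of -0.12. Of the 38 higher members, 15 had a partner called lower, 20 a partner that was not called and 3 a partner called higher. Those 3 partners, named after their values were seen, were Ypel3 (opposite Gm9967), Fbxo48 (opposite Eldr) and Gpr107 (opposite D330023K18Rik), at 0.78, 0.66 and 0.20. The authors also counted reads in a PROMPT region for each gene, upstream of its start, in a table that lacks wild-type replicate 1. For the coding partners 50 of 59 such regions tested were higher, with a median of 1.55, where 39.2% of all 17617 regions tested were higher. The region of a partner and the member gene lie on the same side. How far a region reaches is not given in the sources used here, so the same reads may stand in both tables. Of the 38 higher members, 37 had a higher partner region, and these 37 are among the 50 higher regions.

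**Figure D3:**
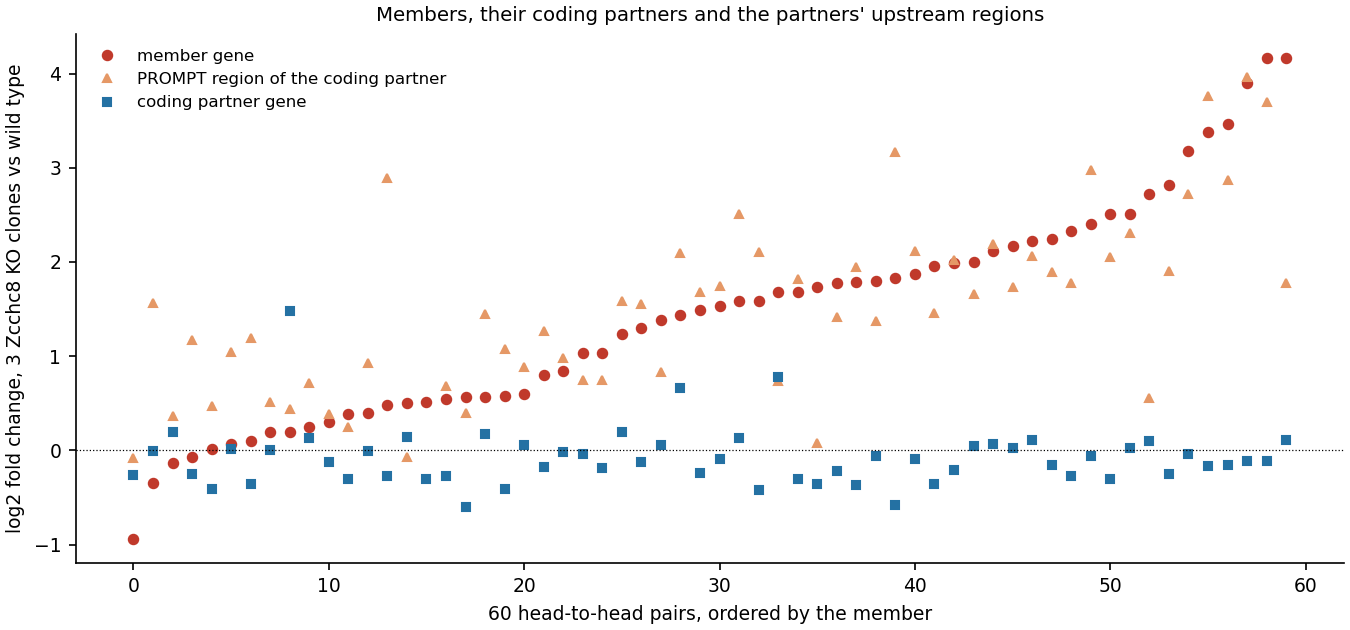
Log2 fold change of the mean of the 3 Zcchc8 KO clones against wild type (vertical axis) for the 60 members head to head with a coding gene (red circles), the coding partners (blue squares) and the partners' PROMPT regions (orange triangles, 59 tested), ordered by the member. Members and partner regions mostly lie above 0, with medians of 1.51 and 1.55, and the partners lie near 0, with a median of -0.12.

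The members' own PROMPT regions behaved less evenly. Of the 210 regions 174 could be tested, with 3 wild-type libraries and the library sizes and scaling of the gene table. Of these, 58 were higher and 11 lower, against 39.2% and 3.85% of all regions, and the median log2 fold change was 0.17 against 0.43 over all regions. Scaling within the PROMPT table gave 33 higher and 54 lower in its place, and the share of all regions with that scaling was not counted. For 35 members the window is clear: they have no other gene within 5 kb upstream. Of their regions 18 passed the filter and 17 of these were higher, but 11 had a wild-type mean below 10 counts and could pass through the Zcchc8 KO libraries alone. Of the 7 with a wild-type mean of 10 or more, 6 were higher, with a median of 2.03. Of the 143 such regions with another gene in that window, 33 were higher and 11 lower, with a median of 0.10. In Btbd7 KO, 4 of the 174 regions were higher and 2 lower (all regions 1.23% and 1.75%).

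The region upstream of Gm14488 held 1.39, 1.87 and 0.645 CPM in wild-type replicates 2, 3 and 4 and 1.87, 1.39, 1.12 and 1.69 in Btbd7 KO. It held 34.4, 24.9, 28.8 and 25.7 in clone 1, 18.1, 14.7, 20.5 and 17.4 in clone 2 and 16.1, 18.3, 20.8 and 15.9 in clone 3. Gene and region were both far above the other lines, and the region's log2 fold change was 4.02 ± 0.20 (SE; adjusted p in edgeR = 7.75e-26). Region and gene parted in 1810026B05Rik and Gm1976. Upstream of 1810026B05Rik the counts rose from 2.13 ± 1.07 CPM (SD, n = 3) to 35.7 ± 2.41, 27.2 ± 3.84 and 24.7 ± 3.41 (SD, n = 4), by 3.80 ± 0.19 (adjusted p in edgeR = 1.4e-26). The gene was at 0.03 ± 0.10 (adjusted p in edgeR = 0.842). Upstream of Gm1976 they rose from 0.593 ± 0.109 to 7.34 ± 0.589, 7.17 ± 1.26 and 6.94 ± 0.502 CPM, by 3.58 ± 0.29, while the gene was at 0.12 ± 0.26 and not called (adjusted p in edgeR = 1.52e-16 and 0.763). The reverse was seen at C130036L24Rik, whose upstream region lies over Ncl: it held 209.7 ± 42.6 CPM in wild type and 158 ± 2.93, 149 ± 15 and 156 ± 19.9 in the clones, a log2 fold change of -0.44 ± 0.08. Of the 58 higher regions, 33 belonged to members whose gene was higher, out of 91 higher members with a tested region.

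Gene structure went along with the size of the change. Of the 55 members whose longest transcript has 1 exon, 33 were higher, with a median log2 fold change of 1.03, and of the 57 with 2 exons 35 were higher and 1 lower, with a median of 1.08. Of the 98 with 3 or more exons, 34 were higher and 4 lower, with a median of 0.30. Wild-type levels were alike in these classes, with medians of 30.75, 29.25 and 32.25 counts per library, and with a wild-type mean of 10 or more the medians were 0.78, 0.69 and 0.20. Head-to-head members with 1 exon were higher in 16 of 20 cases, those with 2 exons in 14 of 19 and those with 3 or more exons in 8 of 21. With a wild-type mean of 10 or more these became 10 of 14, 9 of 14 and 6 of 19. By gene length, 12 of 17 members under 2 kb, 45 of 83 from 2 to 10 kb and 45 of 110 above 10 kb were higher, with medians of 2.11, 0.89 and 0.61, and the shortest class had a wild-type median of 10.75 counts. With a wild-type mean of 10 or more, 5 of 9, 32 of 69 and 33 of 96 were higher, with medians of 0.74, 0.52 and 0.47. These are counts over genes, which are not replicates, and no test of the classes was made.

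**Figure D4:**
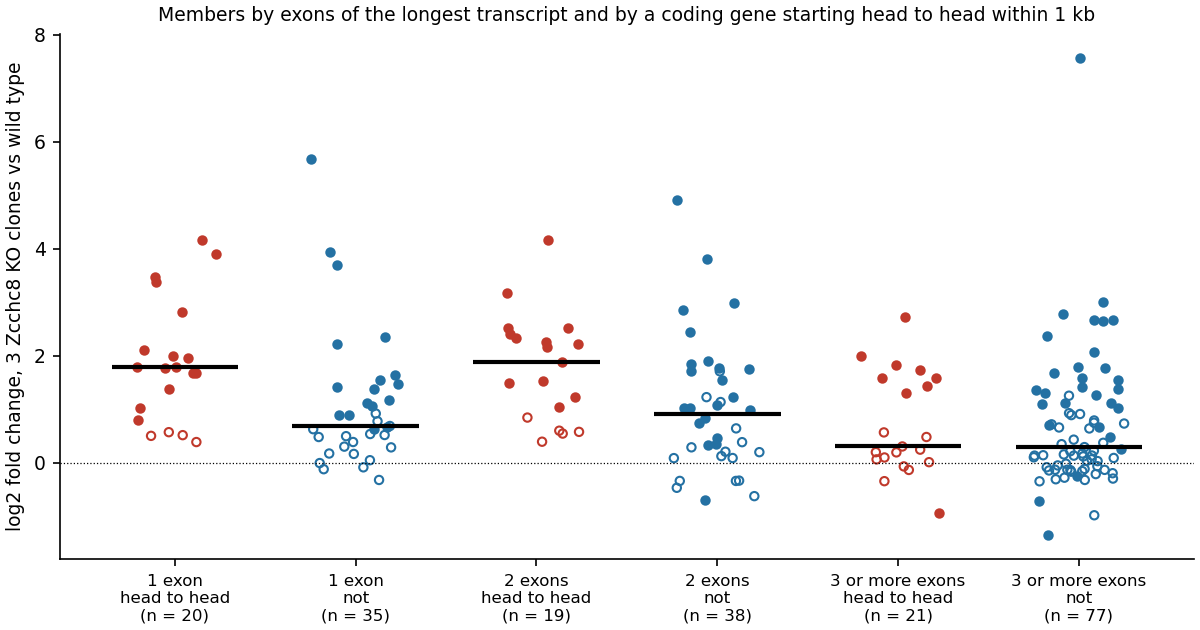
Log2 fold change of the mean of the 3 Zcchc8 KO clones against wild type (vertical axis) for the 210 members, split by exons of the longest transcript and by a head-to-head coding gene (red, head to head; blue, not); filled dots passed an adjusted p of 0.05 in edgeR and black bars are medians. Head-to-head members with 1 or 2 exons have medians of 1.78 and 1.87, and members with 3 or more exons have medians of 0.30 and 0.29; the highest dot is Gm10433, without wild-type counts, whose fitted value is no bound.

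A polyadenylation hexamer, AATAAA or ATTAAA in the last 50 bases of the longest transcript, was present in 123 of the 210 members (58.6%), against 49.2% of all processed_transcript genes, 41.0% of lincRNA genes and 68.7% of protein-coding genes of GENCODE. With a hexamer 55 were higher and 4 lower, with a median log2 fold change of 0.64, and without one 47 of 87 were higher and 1 lower, with a median of 0.91. With a wild-type mean of 10 or more, 33 of 101 and 37 of 73 were higher. Exons shared with another gene limit what a count means. The 92 members that share no exonic base with any other gene had 53 higher and 2 lower, with a median of 1.08, or 34 of 72 higher and a median of 0.67 with a wild-type mean of 10 or more. Of the 19 that share bases on the same strand only, 3 were higher and 1 lower, with a median of 0.09.

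Members that host microRNAs are described next; only the long host transcripts were counted here, not the mature microRNAs. Of 13 members with a microRNA gene but no snoRNA gene inside on the same strand, 7 were higher and 1 lower, with a median log2 fold change of 0.52; of 11 with a snoRNA gene inside, 3 were higher and 1 lower, with a median of 0.14. The mature microRNAs of 6 of the hosts described below are shown from RefSeq on GRCm38.p6, with the seed (bases 2 to 8) in capitals, since several hosts carry the same seeds.
miR-99a-5p (chr16:77598940-77598961, plus strand, in Mir99ahg): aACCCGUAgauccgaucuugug
miR-100-5p (chr9:41531437-41531458, plus strand, in 3110039I08Rik): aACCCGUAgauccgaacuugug
miR-125b-5p (chr16:77646279-77646300, plus strand, in Mir99ahg): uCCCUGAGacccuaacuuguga
miR-125b-5p (chr9:41581940-41581961, plus strand, in 3110039I08Rik): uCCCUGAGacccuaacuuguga
let-7c-5p (chr16:77599672-77599693, plus strand, in Mir99ahg): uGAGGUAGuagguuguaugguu
let-7c-5p (chr15:85706616-85706637, plus strand, in Lncppara): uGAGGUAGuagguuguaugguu
let-7b-5p (chr15:85707325-85707346, plus strand, in Lncppara): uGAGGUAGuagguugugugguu
miR-15a-5p (chr14:61632075-61632096, minus strand, in Dleu2): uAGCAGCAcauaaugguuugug
miR-16-5p (chr14:61631936-61631957, minus strand, in Dleu2): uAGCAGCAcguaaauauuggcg
miR-29b-3p (chr1:195037091-195037113, plus strand, in A330023F24Rik): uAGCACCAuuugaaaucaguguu
miR-29c-3p (chr1:195037600-195037621, plus strand, in A330023F24Rik): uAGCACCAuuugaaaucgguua
miR-22-3p (chr11:75463772-75463793, plus strand, in Mir22hg): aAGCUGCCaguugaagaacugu
The seed ACCCGUA is shared by miR-99a and miR-100, CCCUGAG by both copies of miR-125b, GAGGUAG by the let-7 members, AGCAGCA by miR-15a and miR-16, and AGCACCA by miR-29b and miR-29c.

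Dleu2 (chr14:61602839-61682373, minus strand), the host of the miR-15a and miR-16-1 cluster, was among the 4 most counted members. It held 98.1, 87.3, 89.1 and 111 CPM in wild type and 87.9, 76.7, 85.7 and 78.2 in Btbd7 KO. The clone libraries held 197, 210.2, 222 and 221 in clone 1, 192, 187, 175 and 196 in clone 2 and 207, 193, 211 and 213 in clone 3. The 12 Zcchc8 KO libraries did not overlap the other 8, and the log2 fold change was 1.07 ± 0.06 (SE; adjusted p in edgeR = 8.5e-13). Lncppara (chr15:85653616-85707524, plus strand), the let-7b and let-7c-2 host, held 29.8, 25.8, 20.3 and 21.6 CPM in wild type and 18, 16.9, 21.1 and 16.6 in Btbd7 KO. The clone libraries held 60.9, 67.3, 57 and 66.5 in clone 1, 62.8, 55.8, 66.3 and 56.9 in clone 2 and 65, 61.8, 70.7 and 66 in clone 3. It rose by 1.37 ± 0.09 in Zcchc8 KO (adjusted p in edgeR = 1.66e-11), again with no overlap. Mir99ahg (chr16:77236317-77773427, plus strand) was more spread in wild type, at 31.2, 15.4, 15.1 and 26.9 CPM, with 15.2, 12.9, 15.1 and 14.7 in Btbd7 KO. It was at 54.7 ± 4.46, 45.1 ± 2.7 and 45 ± 6.69 in the clones (SD, n = 4 each). Its log2 fold change was 1.12 ± 0.14 (adjusted p in edgeR = 6.9e-07). In Btbd7 KO these 3 hosts were lower than in wild type, by -0.23, -0.44 and -0.62 on the log2 scale (adjusted p in edgeR = 0.0271, 0.00638 and 0.0133). Mir99ahg had its highest value in wild-type replicate 1, and leaving that library out put it at -0.41 in Btbd7 KO (adjusted p in edgeR = 0.0393). A330023F24Rik, the miR-29b-2 and miR-29c host, held 0.715, 6.94, 4.86 and 4.81 CPM in wild type and 4.53 ± 0.861 in Btbd7 KO, and 14.4 ± 1.35, 9.34 ± 0.673 and 16.3 ± 0.827 in the clones. It rose by 1.58 ± 0.26 (adjusted p in edgeR = 4.01e-05), or by 1.24 without wild-type replicate 1, its lowest library.

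The other hosts varied. The member 3110039I08Rik (chr9:41327077-41716994, plus strand), which encloses Mir100, Mirlet7a-2 and Mir125b-1, held 286, 194, 206 and 202 CPM in wild type and 333, 305, 299 and 314 in Btbd7 KO. The clone libraries held 136, 154, 196 and 194 in clone 1, 271, 282, 209 and 242 in clone 2 and 218, 207, 225 and 206 in clone 3. The ranges of the Zcchc8 KO and wild-type libraries overlapped, and the log2 fold change was -0.09 ± 0.09 (adjusted p in edgeR = 0.498), or 0.08 without wild-type replicate 1. Whether its response differs from that of Mir99ahg was not tested. Mir22hg, the miR-22 host, was at 10.1 ± 1.05 CPM in wild type and 7.18 ± 0.937, 8.03 ± 1.15 and 12.7 ± 1.51 in the clones (SD, n = 4 each), with a log2 fold change of -0.16 ± 0.12 (adjusted p in edgeR = 0.354). Gm13648, which holds Mir200a, Mir200b and Mir429 of the epithelial miR-200 family, rose by 0.47 ± 0.15, from 7.81 ± 2.09 CPM to 11.1 ± 0.835, 10.7 ± 0.883 and 10.7 ± 2.04 (adjusted p in edgeR = 0.0156). Among the snoRNA hosts, 1810032O08Rik (Snord1a, Snord1b and Snord1c) rose from 11.8 ± 1.27 CPM to 29 ± 1.37, 26 ± 2.1 and 21.3 ± 2.16, by 1.09 ± 0.09 (adjusted p in edgeR = 1.48e-09). The gene 1110038B12Rik (Snord52) went from 67.5 ± 5.08 CPM to 83 ± 9.79, 62.4 ± 5.64 and 79.4 ± 3.22, with a log2 fold change of 0.14 ± 0.07 that was not called (adjusted p in edgeR = 0.103). Leaving out wild-type replicate 1 gave 0.21, with an adjusted p of 0.0112 in edgeR. A gene of the host group, AC121821.1 (Mir1949 and Snora74a), was called higher in Zcchc8 KO by 1.54 ± 0.07 and in Btbd7 KO by 0.32 ± 0.08 (adjusted p in edgeR = 2.42e-14 and 0.00792). Gm13648, 1810032O08Rik, AC121821.1 and A330023F24Rik were named after their values were seen.

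**Figure D5:**
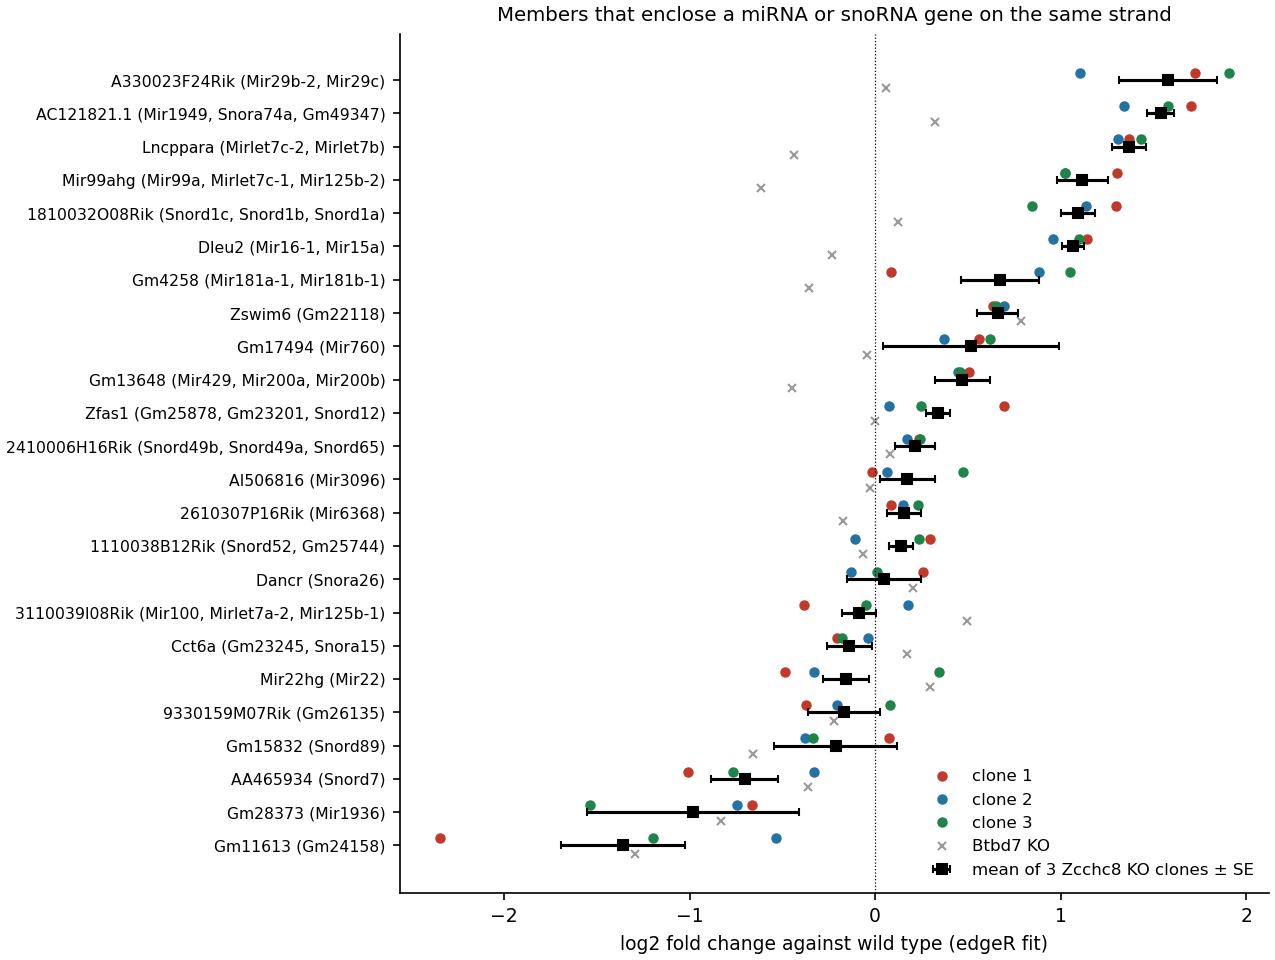
Log2 fold change against wild type (horizontal axis) for the members that enclose a small RNA gene on the same strand, with the small RNAs in parentheses: black squares are the mean of the 3 Zcchc8 KO clones ± SE, coloured dots the single clones and grey crosses Btbd7 KO. Mir99ahg, Lncppara and Dleu2 lie above 1 for the mean of the clones and below 0 for Btbd7 KO, while 3110039I08Rik and Mir22hg lie near 0 for the mean.

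Long non-coding RNAs with established names made up 8 members, and their responses were mixed. Dleu2 and Lncppara rose as described. Zfas1, a snoRNA host that runs antisense to the start of Znfx1, held 57.4, 53.8, 47.4 and 54.3 CPM in wild type and 53.1, 47.4, 59.4 and 53.8 in Btbd7 KO. The clone libraries held 86, 79.3, 88.6 and 91.6 in clone 1, 50.7, 61, 53.3 and 58.8 in clone 2 and 59.6, 61.8, 66.9 and 64.4 in clone 3. Only the libraries of clones 1 and 3 lay wholly above wild type, and the log2 fold change of the mean was 0.34 ± 0.07 (adjusted p in edgeR = 0.00027). Fendrr, a regulator of heart and body wall development, was scarce, with 0, 0.405, 0.299 and 0.469 CPM in wild type and 2.41, 1.19, 1.99 and 1.86 in Btbd7 KO. The clone libraries held 1.17, 1.35, 3.62 and 3.31 in clone 1, 0.137, 1.78, 0.684 and 0.345 in clone 2 and 0.641, 0.628, 0.255 and 0.954 in clone 3, with log2 fold changes of 2.95, 1.34 and 1.08 (adjusted p in edgeR = 0.0462 for a difference among clones). For the mean it was called higher in Zcchc8 KO by 1.79 ± 0.61 and in Btbd7 KO by 2.61 ± 0.68 (adjusted p in edgeR = 0.0234 and 0.00915), and Zcchc8 KO against Btbd7 KO gave -0.81 ± 0.49 (adjusted p in edgeR = 0.196). The wild-type mean of Fendrr was below 10 counts, so it passed the threshold through the KO libraries and these calls support nothing. Firre, an X-linked RNA of nuclear organization, held 88.9, 71.3, 68.3 and 68.5 CPM in wild type and 62.4 ± 6.05, 63.3 ± 2.87 and 78.5 ± 2.06 in the clones, a log2 fold change of -0.13 ± 0.07 (adjusted p in edgeR = 0.125), or -0.02 without wild-type replicate 1, its highest library. Crnde, Dancr (a snoRNA host) and Foxd2os were at -0.05 ± 0.33, 0.05 ± 0.20 and 0.20 ± 0.20, with wild-type means of 1.6, 5.39 and 6.32 CPM, and were not called (adjusted p in edgeR = 0.925, 0.885 and 0.487). Over the longer list of named long non-coding RNAs, of which 22 were tested, 9 were higher and 3 lower (16.2% and 19.9% of all genes), with a median of 0.25. Of those that are not members, Lncpint stood at 1.54 ± 0.10, and the 3 lower ones were Peg13 at -0.996 ± 0.171, Pvt1 at -0.48 ± 0.10 and Ftx at -0.30 ± 0.07.

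The 4 members with the highest CPM took 36.1% of the members' mean counts. Besides Dleu2 and 3110039I08Rik they were Cct6a and Ifi30, which RefSeq lists as coding. Cct6a, a subunit of the chaperonin that folds actin and tubulin, held 172, 377, 308 and 281 CPM in wild type and 248 ± 25, 277 ± 40.6 and 253 ± 39.2 in the clones (SD, n = 4 each), and its log2 fold change of -0.14 ± 0.12 was not called (adjusted p in edgeR = 0.394). Without wild-type replicate 1, its lowest library, it was -0.30 (adjusted p in edgeR = 0.0021). Ifi30, the lysosomal thiol reductase GILT, held 269.7, 179, 172 and 194 CPM in wild type and 189 ± 5.46, 152 ± 7.11 and 177 ± 2.47 in the clones. Its log2 fold change of -0.25 ± 0.07 (adjusted p in edgeR = 0.00885) became -0.06 (adjusted p in edgeR = 0.314) without wild-type replicate 1, its highest library. Per kilobase of exon, Ifi30 stood highest of the 4 in wild type at 207.6 CPM, followed by Cct6a at 78.7, while 3110039I08Rik at 9.28 and Dleu2 at 8.5 were close together. In the Zcchc8 KO clones Dleu2 was at 17.8 and 3110039I08Rik at 8.86. Of the 10 members that RefSeq lists as coding, 1 was higher and 1 lower, with a median log2 fold change of 0.02. The higher one was Zswim6, a zinc finger gene, at 9.49, 12, 11.9 and 10.3 CPM in wild type and 19.2, 18.1, 19.5 and 18.8 in Btbd7 KO. It was at 17 ± 1.5, 17.6 ± 2.62 and 17.2 ± 2.23 in the clones. It rose in both kinds of KO, by 0.66 ± 0.11 and 0.79 ± 0.13 (adjusted p in edgeR = 3.75e-05 and 9.94e-05), and the Zcchc8 KO and Btbd7 KO libraries overlapped.

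The 5 members called lower rested mostly on wild-type replicate 1. Gm11613 held 9.04, 1.74, 2.47 and 2.7 CPM in the 4 wild-type libraries and 0.778 ± 0.176, 2.8 ± 1.07 and 1.75 ± 0.556 in the clones, with a log2 fold change of -1.36 ± 0.34 (adjusted p in edgeR = 0.00238) that became -0.55 (adjusted p in edgeR = 0.168) without the first library. For 9230114K14Rik the values were 9.56, 3.65, 2.17 and 2.23 CPM in wild type and a change from -0.94 ± 0.30 to -0.22, and for AA465934, host of Snord7, 12.7, 6.02, 8.22 and 6.69 CPM and a change from -0.70 ± 0.18 to -0.41 (edgeR adjusted p without that library 0.569 and 0.0613). Only A930001C03Rik was called lower both ways, at 4.55, 3.93, 4.19 and 5.22 CPM in wild type and 2.48 ± 0.535, 3.3 ± 1.17 and 2.43 ± 0.655 in the clones, by -0.72 ± 0.22 with all libraries and -0.69 without it (adjusted p in edgeR = 0.0128 and 0.0192). The fifth was Ifi30.

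The 3 clones differed from one another in 29 of the 210 members, or 13.8%, beside 28.5% of all genes (joint edgeR test, adjusted p below 0.05). With wild-type replicate 1 left out of the fit the number of members was 53. Wild type is not part of this contrast, and the share of all genes without that library was not counted. Gm13415, with the lowest p after Zfas1, lies antisense to the transcription factor gene Pax8 over part of its length. It held 2.28, 4.17, 7.63 and 5.75 CPM in wild type and 7.47, 5.97, 8.31 and 9.21 in Btbd7 KO. The clone libraries held 14.1, 10.4, 12 and 14 in clone 1, 2.33, 3.28, 5.7 and 1.93 in clone 2 and 3.06, 2.89, 3.95 and 3.88 in clone 3. Clone 1 lay above every library of the other lines, and clones 2 and 3 overlapped wild type. The log2 fold changes were 1.36 ± 0.30, -0.53 ± 0.31 and -0.51 ± 0.31 (edgeR adjusted p of the joint test = 9.92e-06). Tmem134, coding in RefSeq, was at -0.37 ± 0.07, 0.13 ± 0.07 and -0.17 ± 0.07 in the 3 clones, and Zfas1 at 0.70 ± 0.08, 0.07 ± 0.08 and 0.24 ± 0.08 (joint adjusted p in edgeR = 2.53e-05 and 3.27e-06). In Btbd7 KO the lowest p-values with all libraries belonged to Zswim6, 4921531C22Rik and 2310002F09Rik. The last, which overlaps exons of the kallikrein genes Klk14 and Klk8 on the other strand, held 7.54, 8.56, 9.2 and 8.74 CPM in wild type and 4.46, 3.52, 5.09 and 3.13 in Btbd7 KO, without overlap, a log2 fold change of -1.08 ± 0.19 (adjusted p in edgeR = 0.00029). In the Zcchc8 KO clones it was at 7.8 ± 1.53, 6.23 ± 0.721 and 6.27 ± 0.875 CPM, with a log2 fold change of -0.34 ± 0.15 that was not called. This order moved without wild-type replicate 1. Btbd7 KO then gave 0.65 for 3110039I08Rik and 0.40 for AC121821.1 (adjusted p in edgeR = 2.01e-07 and 0.000128). It gave -1.13 for 2310002F09Rik and -0.60 for 4921531C22Rik (adjusted p in edgeR = 4.25e-05 and 0.00414).

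The genes of the decay machinery were also examined. Of 22 tested genes for NEXT, its poly(A)-dependent counterpart, the cap-binding adaptors and the exosome, 1 was higher and 10 lower in Zcchc8 KO (16.2% and 19.9% of all genes), with a median log2 fold change of -0.16. Zcchc8 was at -0.62 ± 0.06, its partners Rbm7 at -0.20 ± 0.07 and Mtrex at -0.27 ± 0.04, the exosome nuclease Dis3 at -0.31 ± 0.05, and Srrt, an adaptor of the cap-binding complex, was the one higher gene at 0.49 ± 0.05 (adjusted p in edgeR = 2.02e-08, 0.0179, 2.89e-05, 3.64e-05 and 7.8e-09). The Zcchc8 value is a mean over unlike clones, since clone 2 was far below wild type and clones 1 and 3 were close to it, as given above. Of 14 genes of nonsense-mediated decay, a cytoplasmic pathway that removes spliced RNAs with early stop codons, 4 were lower, beside 19.9% of all genes, with a median of -0.04. Upf3a and Rbm8a were lowest, at -0.37 ± 0.09 and -0.37 ± 0.09 (adjusted p in edgeR = 0.00133 and 0.00306). Both lists were drawn up with earlier results of these data known.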

How the data were processed

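Total RNA libraries were made with a stranded kit from TRIzol-extracted RNA, per the labels' protocols. The authors deposited whole-number read counts per feature and library; STAR 2.7.3a and FastQC are named in the submitters' processing notes, and the counter, its strand setting, the genome build and the extent of a PROMPT region are not given in the sources used here. Of 9 tables, the gene table (20 libraries) and the PROMPT table (19 libraries, without wild-type replicate 1) were used, and 0 columns lacked a mapped library. GENCODE M21 (GRCm38) gave gene classes and positions: 54573 of 55471 identifiers matched with their version and 55230 without.

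Counts were scaled by TMM factors over all genes, filtered with filterByExpr by group, and fitted in one model of 5 groups with edgeR 4.0.16 (glmQLFit, glmQLFTest; R 4.3.3) without covariates; p-values were adjusted by Benjamini-Hochberg over all features tested and called below 0.05. PROMPT counts used the library sizes and TMM factors of the gene table. All 210 members passed the filter. CPM are TMM-scaled. Samples were grouped by their titles. Pairs of libraries of a group all differed by more than sampling noise (chi-square divided by its degrees of freedom, 2.89 to 78.6). On simulated counts for 15296 genes with 200 changed, the Zcchc8 KO comparison recovered 69% of 2-fold and 90% of 4-fold changes, and 4.22% of calls were false. For 17711 PROMPT regions the values were 57%, 87% and 8.86%. Far fewer genes changed in the simulation than were called in the data. It used no TMM scaling, and no simulated library stood apart as wild-type replicate 1 did. These rates therefore need not hold for the data.

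The members and the lists were chosen with earlier results of these data known. Genes were named by rule: members of the lists of microRNA hosts and known long non-coding RNAs; the 8 with the largest fold change among members called in every clone with a mean of 50 counts; the 4 with the highest CPM; the 3 with the lowest p among clones, and in Btbd7 KO; the 3 with the smallest standard error among those not called; the genes at the threshold; and the PROMPT regions with the largest and lowest change. Others are marked where they appear. Alternatives were DESeq2 1.42.0, no TMM, no filter, a mean filter, only the groups compared, counts thinned to equal depth, a fold threshold, lines as replicates, other memberships, a replicate block and leaving out each library; added after seeing the data was TMM over filtered genes. The class comparisons are descriptions without a test.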

Additional observations from a re-analysis of the deposited data

Results flagged for a closer look

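Among 150 groups of 4 libraries of the named genes, 8 held a library whose gap to the nearest other library passed Dixon's limit, where chance gives about 1 in 20. Wild-type replicate 1 was far above the rest of its group in Firre (88.9 CPM against 68.3 to 71.3), 3110039I08Rik (286 CPM, the others from 194 to 206) and Tmem134 (90.7 CPM, the others from 78.2 to 78.7); this library also had counts in the fewest genes, and the part of that in these values was not tested. Btbd7 KO replicate 2 was high in Firre (68.2 CPM against 60.0 to 61.0) and in Gm1976 (3.65 CPM against 2.41 to 2.61), and Btbd7 KO replicate 3 was low in AC138790.1 (2.11 CPM against 4.31 to 4.65). In C130036L24Rik, wild-type replicate 4 (8.62 CPM) and clone 1 replicate 2 (32.5 CPM) stood above their groups, and both remain on their group's side of the gap between the lines.

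Of 30 named genes, 9 differed among the 3 Zcchc8 KO clones in the joint edgeR test. The log2 fold changes below are for clones 1, 2 and 3 against wild type. Zfas1 had an adjusted p of 3.27e-06 (0.70, 0.07 and 0.24), Gm13415 of 9.92e-06 (1.36, -0.53 and -0.51) and Tmem134 of 2.53e-05 (-0.37, 0.13 and -0.17). Mir22hg had an edgeR adjusted p of 0.000347 (-0.48, -0.33 and 0.35), 1110038B12Rik of 0.000755 (0.30, -0.11 and 0.23) and 3110039I08Rik of 0.00149 (-0.38, 0.18 and -0.05). For Firre it was 0.0042 (-0.25, -0.23 and 0.08), for Ifi30 0.0258 (-0.11, -0.42 and -0.20) and for Fendrr 0.0462 (2.95, 1.34 and 1.08).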

How the results depend on the processing

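For the mean of the 3 clones against wild type, 102 members were higher and 5 lower. The higher count was 109 with DESeq2, 109 without TMM, 102 without the filter and 87 with a log2 fold change above 1. With each line as 1 replicate the comparison was another one, of the 3 clones against wild type and Btbd7 KO together. It gave 62 higher and 0 lower (edgeR). The share of all genes called was not counted under any of these settings, so these counts have no background beside them. Membership by the Btbd7 KO mean left 66 higher, and members that share no exon with another gene had 53 higher and 2 lower. A log2 fold change above 1 left 1 lower, and clone 2 without TMM had 1 lower. PROMPT regions scaled within their table were 33 higher and 54 lower, and those with no gene 5 kb upstream 17 higher and 0 lower. For the scaling within the table the share of all regions was not counted.

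Leaving out single libraries gave, for the mean, 98 to 112 higher and 2 to 7 lower; against Btbd7 KO, 93 to 120 and 3 to 6; clone 1, 94 to 111 and 6 to 11; clone 2, 81 to 102 and 2 to 6; clone 3, 79 to 98 and 1 to 5; Btbd7 KO, 6 to 11 and 9 to 17; members that differ among clones, 20 to 53; PROMPT regions, 49 to 60 and 9 to 11. Shares of all genes were counted only for the mean without wild-type replicate 1. Of these 298 counts 15 moved by over 1.5 times. Without wild-type replicate 1, 53 members in place of 29 differed among clones, 2 in place of 5 were lower for the mean and 6 in place of 3 in clone 2. Without wild-type replicate 3, 6 were lower in clone 2 and 5, in place of 3, in clone 3. Without clone 1 replicate 1, 2 or 4, 6, 7 and 7 in place of 11 were lower in clone 1, and without clone 3 replicate 1 or 2, 1 was lower in clone 3. Without Btbd7 KO replicate 2, Btbd7 KO had 6 in place of 10 higher. Without its replicate 2 or 4, it had 9 in place of 14 lower, and without its replicate 1 or 2, 3 in place of 5 members were lower in Zcchc8 KO than in Btbd7 KO. Named genes close to 0 turned in direction, none of them called in the main analysis: Crnde (0.0263 without TMM, -0.17 to 0.0841 without single libraries), Dancr (-0.0700 to 0.25), 3110039I08Rik (-0.15 to 0.0785), Gm13415 (-0.11 to 0.38), Cct6a (-0.30 to 0.0277), 1810026B05Rik (-0.0342 to 0.19) and Gm1976 (-0.0423 to 0.36). The other 283 counts without single libraries and 80 of 91 counts under the other settings stayed within 1.5 times, and the 11 that did not are given above.

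The groups share replicate numbers, but same-numbered libraries deviated together in only 2 of 40 pairs (correlation over 0.1; range -0.09 to 0.15), and 4 of 20 libraries correlated best with one of their own number. With the number as a replicate block, 100 members were higher and 5 lower, 27 differed among clones, and 59 PROMPT regions were higher and 12 lower. Shares of all genes and regions were not counted with this block.

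Low counts limit the scarce members. With a mean near 10 counts, single libraries often held none, and calls such as that of Gm11769 did not survive leaving out some libraries. Every library of clone 1, with 6833258 to 7683444 gene counts, had a count in all 210 members. Wild-type replicate 1, with 16083397 gene counts, had a count in 156. The part of depth in this was not tested.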
